A study of Homo sapiens with 15 samples.

Results

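The comparison described here was of 2 cisplatin doses in PEO4, 32 µM against 16 µM. Its members were the 6 libraries whose titles gave PEO4 and one of these doses, 3 at 16 µM and 3 at 32 µM, out of 15 libraries in the series. PEO4 is an ovarian cancer line taken from a patient with high-grade serous ovarian cancer after resistance to platinum chemotherapy had developed in the clinic, so it is 1 line from 1 patient. The other 9 libraries were 3 of untreated PEO4, which served here as the background of the method, and 3 untreated and 3 at 16 µM of PEO1, the platinum-sensitive line from the same patient. The labels did not say whether the 3 libraries of a group came from separate cultures, so the p-values measure only the spread between these libraries, which may be technical.

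Cisplatin binds the N7 position of purines and forms bulky adducts, most of them cross-links between neighbouring guanines on a strand. Cells remove these adducts mainly by nucleotide excision repair, copy past them with translesion polymerases and repair the breaks they cause by homologous recombination. Pt-exo-seq digests sheared genomic DNA with an exonuclease that halts at a platinum adduct, displaces the platinum with cyanide and sequences what is left. Undamaged DNA that escaped digestion is also sequenced, so an untreated library maps background and copy number rather than adducts, and a library total says nothing about how many adducts the cells carried. The values are therefore shares of reads along the genome, and the question was whether the higher dose placed reads differently.

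The libraries held 31.0, 32.2 and 56.6 M counts at 16 µM and 28.8, 27.7 and 27.9 M at 32 µM, and 37.8, 48.6 and 35.1 M in untreated PEO4. Counts on chromosomes 1 to 22 were summed over 2716 bins of 1 Mb with a median of 12810 counts per library, over 6497 protein-coding gene bodies of at least 50 kb with a median of 1357, and over 39 chromosome arms with a median of 783900. Each was tested as counted and at given GC, that is, after a smooth curve on GC content had been taken out of every library. Changes are given as log2 of 32 µM over 16 µM with a standard error (SE), and normalised counts are scaled to a library of 34.1 M autosomal counts.

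As counted, AT-rich DNA held more of the reads at 32 µM on average, but single libraries of both doses lay on both sides. The 1 Mb bins were split by GC content into 5 classes of equal size. In the GC-poorest class (33.5 to 37.0% GC), 544 of 544 bins had a log2 change above 0, with a median of 0.09. In the GC-richest class (44.6 to 59.1% GC), 93 of 543 did, with a median of -0.05. The trend bent back in the 32 bins of at least 54% GC, of which 29 had a change above 0 as counted, with a median of 0.07. The slope of each library on GC, as log2 of the ratio to untreated PEO4 per 10 percentage points of GC, was -0.47, 0.01 and -0.05 for the 16 µM libraries and 0.03, -0.44 and -0.35 for the 32 µM libraries. Replicate 1 at 16 µM thus lay with replicates 2 and 3 at 32 µM, while replicate 1 at 32 µM lay with replicates 2 and 3 at 16 µM. The untreated libraries had slopes of 0.03, -0.11 and 0.08, so the steep slopes were found in 3 of 6 treated and 0 of 3 untreated libraries. The difference of the dose means was -0.08, with an SD of 0.26 at 16 µM and 0.25 at 32 µM (exact two-sided permutation test, p = 1, adjusted p = 1 over 6 such measures). With 3 libraries against 3, this test cannot go below 0.1.

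An exchange of labels between the libraries of replicate 1 and variation between libraries cannot be told apart here, and the labels were kept as given. Every result as counted rests on these libraries. With replicate 1 of both doses left out, a choice made after their slopes had been seen, the difference in slope was -0.38 in place of -0.08, the GC-richest class differed by -3.74 points and the GC-poorest by 3.28. As counted, 1367 bins (50.3%) then had an unadjusted p under 0.05, against 1.1% with all libraries, and 1671 bodies (25.7%), against 2.63%. The smallest edgeR adjusted p was 0.0562 for bins and 0.0746 for bodies, so 0 passed in either. Of the 39 arms, 22 (56.4%) had an unadjusted p under 0.05 and 1, 15q, passed (-0.05, edgeR adjusted p = 0.00471). At given GC 4 bins passed, chr4:1-1000000 and chr14:106000001-107000000 higher at 32 µM and chr19:10000001-11000000 and chr19:17000001-18000000 lower, and 0 bodies or arms. Since these libraries were left out for their slopes, those values are a description.

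**Figure D1:**
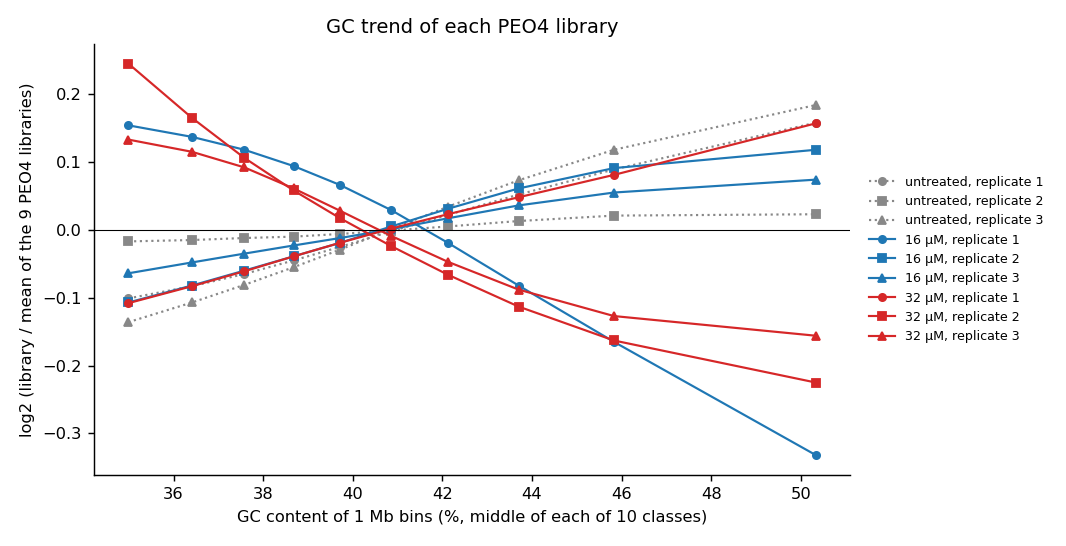
GC trend of each PEO4 library: the x axis is the GC content of 1 Mb bins, in 10 classes of equal size (%), the y axis the log2 ratio of the fitted curve of each library to the mean of the 9 PEO4 libraries. Replicate 1 at 16 µM and replicates 2 and 3 at 32 µM fall from left to right, the other 6 libraries rise, and neither dose keeps to one side.

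The GC-richest class of bins held 18.7, 23.9 and 23.3% of reads at 16 µM and 24.1, 19.5 and 20.2% at 32 µM, against 24.2, 22.6 and 24.6% in untreated PEO4. The values of the doses overlapped fully, with a difference of means of -0.707 percentage points (exact permutation p = 1, adjusted p = 1). The GC-poorest class held 20.4, 17.2 and 17.7% at 16 µM and 17.2, 21.3 and 20.2% at 32 µM, a difference of 1.11 points (exact permutation p = 0.6, adjusted p = 1) that ran from 0.234 to 2.29 when a library was left out, and 17.2, 18.2 and 16.9% in untreated PEO4. Leaving out replicate 2 of either dose turned the sign of the slope and of the difference in the GC-richest class.

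Whole profiles of the doses lay about as far apart as profiles within a dose. As the root mean square (RMS) difference of log2 CPM (counts scaled to library size) over 1 Mb bins, the 9 pairs of libraries of unlike dose were 0.14 ± 0.07 apart (SD over pairs), and the 6 pairs of like dose 0.16 ± 0.08. The farthest pair, at 0.24, was replicate 1 at 16 µM with replicate 1 at 32 µM, and the closest, at 0.06, was replicates 2 and 3 at 16 µM. At given GC the unlike pairs were 0.0593 ± 0.0043 apart and the like pairs 0.0583 ± 0.005. With replicate 1 of both doses left out, the mean of unlike pairs exceeded that of like pairs by 0.119 as counted and by 0.00499 at given GC. Pairs share libraries, so these values carry no test.

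**Figure D2:**
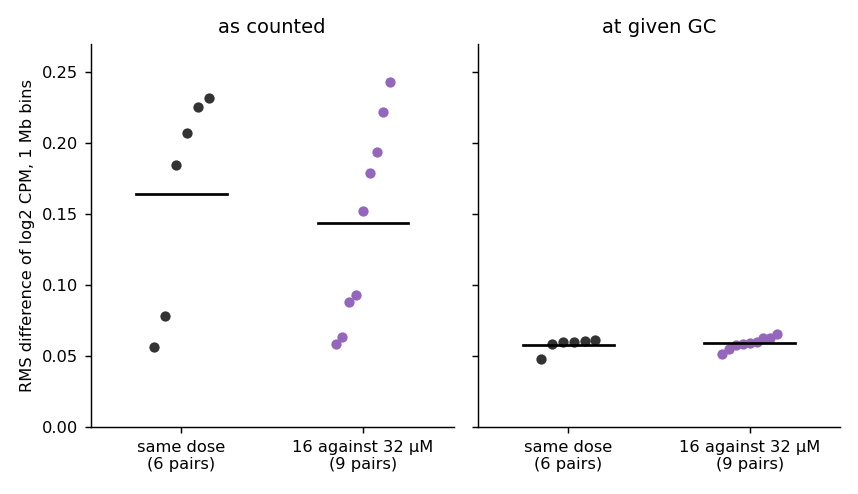
Distance between treated PEO4 libraries: each point is a pair of libraries, the y axis is the RMS difference of log2 CPM over 1 Mb bins, and the bar is the mean. Pairs of unlike dose (9) and of like dose (6) cover the same range as counted, up to 0.24, and lie between 0.05 and 0.07 at given GC with 1 pair, of like dose, just under 0.05.

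Across single 1 Mb bins, no change as counted passed the test. Of 2716 bins, 0 had an adjusted p under 0.05 (0.0%) by edgeR's quasi-likelihood test, 30 had an unadjusted p under 0.05 (1.1%), and DESeq2 and limma also called 0. Changes ran from -0.25 to 0.22 with a median SE of 0.06. The spread between replicates beyond counting error came to a coefficient of variation of 7.14% as counted and 2.43% at given GC. Without replicate 1 at 16 µM the bins with an unadjusted p under 0.05 rose from 30 to 205, and without replicate 1 at 32 µM to 462, though 0 bins passed adjustment in either case.

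At given GC 1 bin passed, at chr5:178000001-179000000 (hg19), or 0.0368% of the bins. It lies near the end of 5q and holds, among 13 protein-coding genes, the procollagen N-proteinase gene ADAMTS2, the glutamate receptor gene GRM6, the kinase gene CLK4 and a cluster of zinc finger genes. Its normalised counts at given GC were 13536, 13404 and 14364 at 16 µM and 15308, 15109 and 15183 at 32 µM. All 32 µM libraries lay above all 16 µM libraries, and the untreated libraries, at 14058, 14620 and 14073, overlapped the 16 µM range. The log2 change was 0.14 (SE 0.03, edgeR adjusted p = 0.0454), or 10.3%. Over 17 alternatives the log2 change of this bin stayed between 0.12 and 0.18 and its adjusted p ran from 0.00504 to 1. It passed in 8 of them. Leaving out any of the treated libraries other than replicate 3 at 16 µM ended the call. With a straight line on GC in place of the curve, 48 bins passed, 46 of them higher at 32 µM.

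In all, 148 bins (5.45%) had an unadjusted p under 0.05 at given GC, 127 higher at 32 µM (4.68%) and 21 lower. The direction of this split was not stable. With scaling factors computed after the GC curve it was 91 higher and 87 lower, with only the 6 treated libraries 27 and 58, without replicate 1 at 16 µM 67 and 124, and without replicate 1 of both doses 72 and 153. With the later scaling factors the median change of all bins moved from 0.01 to -0.0006. The libraries of the 2 doses did not overlap in 223 bins (8.21%), 178 higher and 45 lower at 32 µM. Of all ways to split 6 libraries 3 against 3, a share of 0.1 separates any set of values fully, whatever the dose. The next bin by p, chr1:1-1000000, which holds the ubiquitin-like modifier gene ISG15, the agrin gene AGRN and olfactory receptor genes, had 2864, 3534 and 3537 normalised counts at 16 µM and 4260, 3802 and 4121 at 32 µM. Its groups did not overlap, but the untreated libraries (3798, 3912 and 3913) fell within the 32 µM range or just below it, and the log2 change of 0.29 (SE 0.07) had an adjusted p of 0.0752, with a range from 0.00162 to 0.509 over alternatives.

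The bins of smallest p in the other direction were weaker. At chr6:40000001-41000000, which holds the synaptic adhesion gene LRFN2, counts of 15628, 15013 and 14476 at 16 µM stood against 14012, 14148 and 14058 at 32 µM, with the untreated libraries at 14126, 14537 and 13836. The log2 change was -0.09 (SE 0.03, adjusted p = 0.648). Other bins named on this side, chr16:25000001-26000000 with HS3ST4 and AQP8 and chr1:15000001-16000000 with CASP9, had changes of -0.09 and -0.11 (SE 0.03 and 0.04, adjusted p = 0.648 and 0.812).

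**Figure D3:**
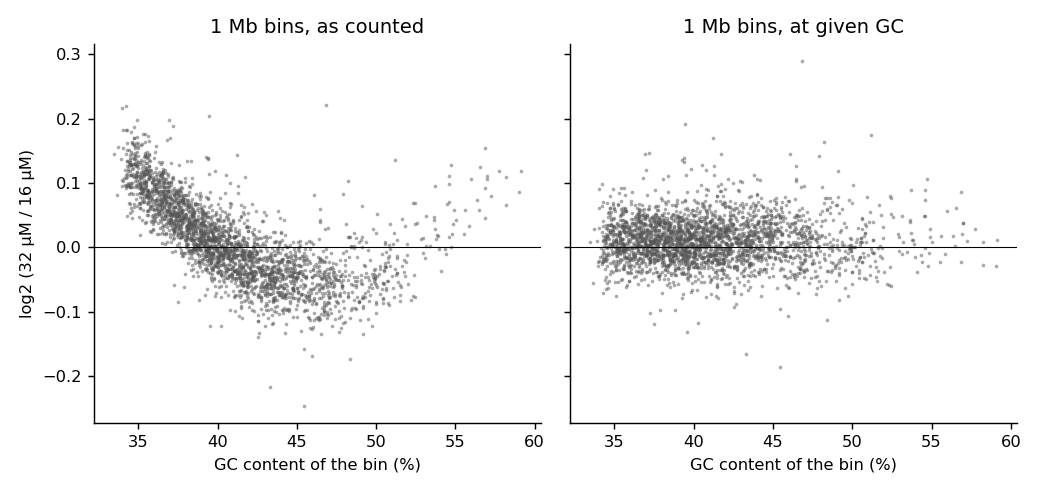
Dose change of each of 2716 bins of 1 Mb against its GC content (%): the y axis is log2 of 32 µM over 16 µM. As counted (left) GC-poor bins lie above 0, most bins of the GC-richest class below and those of at least 54% GC mostly above again, and at given GC (right) the trend is gone and the bins lie between -0.19 and 0.29.

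Bins at chromosome ends lay higher than the rest at 32 µM. The bins called the terminal 2 Mb here started in the first 2 Mb of a chromosome or ended within 2 Mb of its other end. Some of the latter therefore began farther in than 2 Mb. The bins chr5:178000001-179000000 and chr1:1-1000000 above were members. This region was looked at after its values had been seen and so is given without a test. Of its 93 bins, 24 (25.8%) had an unadjusted p under 0.05, all higher at 32 µM. Of 2623 other bins, 124 (4.73%) did, and the median log2 changes at given GC were 0.05 and 0.01. Without replicate 2 at 32 µM there were 10 higher and 1 lower (11.8%), with only the 6 treated libraries 10 higher (10.8%), or 5 (5.38%) with a replicate block, and with a straight line on GC 46 higher and 1 lower. The excess of terminal over other bins was 0.002, -0.028 and -0.024 in the 16 µM libraries, 0.007, 0.032 and 0.020 in the 32 µM libraries and 0.012, 0.001 and -0.022 in untreated PEO4, on the log2 scale. The doses did not overlap, by a gap smaller than the spread within either, and the untreated libraries overlapped both. The terminal bins had a median GC content of 48.1%, against 40.1% elsewhere, and the part of this in the difference was not tested.

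Over gene bodies, no gene passed the test on either scale. As counted, 0 of 6497 bodies had an adjusted p under 0.05 (0.0%) and 171 an unadjusted p under 0.05 (2.63%), a number that rose to 507 without replicate 1 at 16 µM and to 650 without replicate 1 at 32 µM. At given GC, 0 bodies passed (0.0%) and 339 had an unadjusted p under 0.05 (5.22%), of which 234 (3.6%) were higher at 32 µM and 105 lower, or 182 and 165 with scaling factors computed after the curve. Here too the split moved, to 115 higher and 203 lower with library totals, 58 and 109 among bodies of at least 100 kb and 157 and 152 without replicate 1 at 16 µM. DESeq2 called 1 body at given GC and limma 0. The doses did not overlap in 620 bodies (9.54%), 402 higher and 218 lower at 32 µM, beside the share of 0.1 of splits that separate fully whatever the dose. Replicate variation was 9.94% as counted and 6.47% at given GC, and the median SE at given GC was 0.08.

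Longer bodies hold more reads and were measured more tightly, with no larger share past the unadjusted threshold. The SD of the log2 change at given GC was 0.11 in 2993 bodies of 50 to 100 kb, 0.08 in 2065 of 100 to 200 kb, 0.06 in 1129 of 200 to 500 kb and 0.04 in 310 of at least 500 kb, close to the median SE of each class (0.10, 0.07, 0.05 and 0.04). The share with an unadjusted p under 0.05 was 5.75, 4.55, 4.96 and 5.48% in the same order.

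CAAP1, which encodes an inhibitor of caspase activity and apoptosis, had the smallest p of all gene bodies (chr9:26840683-26892801, minus strand, 52.1 kb). Its normalised counts at given GC were 388, 454 and 456 at 16 µM, 297, 256 and 294 at 32 µM, and 425, 378 and 351 in untreated PEO4. The 3 libraries at 32 µM were the lowest of the 9. The log2 change was -0.62 (SE 0.15), or -34.8%, with an adjusted p of 0.335 by edgeR and a range from 0.0419 to 0.779 over alternatives, and DESeq2 was the only one that called it.

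Among the bodies of smallest p that were higher at 32 µM were 2 genes that act on cisplatin adducts. ERCC8 (chr5:60162281-60240900, 78.6 kb) encodes CSA, which takes part in nucleotide excision repair at stalled RNA polymerase. It had 817, 902 and 1005 normalised counts at 16 µM, 1095, 1266 and 1045 at 32 µM, and 898, 1046 and 1023 in untreated PEO4, with a log2 change of 0.32 (SE 0.09, unadjusted p = 0.000949, adjusted p = 0.779). REV3L (chr6:111620231-111804918, 184.7 kb), the catalytic subunit of the translesion polymerase zeta, had 2537, 2569 and 2770 at 16 µM, 3153, 2847 and 3011 at 32 µM and 2568, 2661 and 2782 in untreated PEO4, with a log2 change of 0.19 (SE 0.06, unadjusted p = 0.00152, adjusted p = 0.779). At given GC, on which both genes were chosen, the doses did not overlap in either, so this adds no support. Neither gene passed adjustment in any of the alternatives.

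DLGAP2, a postsynaptic scaffold gene of 969.0 kb near the end of 8p, had 5375, 5137 and 5750 normalised counts at 16 µM and 6107, 6190 and 5925 at 32 µM. Untreated PEO4, at 5723, 5844 and 5498, overlapped the 16 µM range and lay below the 32 µM range, and the log2 change was 0.16 (SE 0.04, adjusted p = 0.614). The other bodies named on this side were TSPEAR (0.24), GALNTL6 (0.12), the scaffold gene MAGI3 (0.16), TEX9 (0.19), the peroxidasin gene PXDN (0.24), the flavin monooxygenase gene FMO5 (0.34) and the cyclophilin gene PPIE (0.29), each with an adjusted p of 0.779. TSPEAR and PXDN lie, like DLGAP2, near a chromosome end. At given GC, on which they were chosen, the doses did not overlap in any of the 10 bodies named on this side, while as counted they overlapped in DLGAP2, TSPEAR, GALNTL6, MAGI3, PXDN and PPIE.

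Lower at 32 µM, after CAAP1, were FRMD3 (-0.24), TMEM182 (-0.17), LRFN2 (-0.20), LMO3 (-0.33), SMAD3, which carries TGF-beta signals to the nucleus (-0.21), PAG1 (-0.18), ARHGEF26 (-0.20) and ABRAXAS1 (-0.35), each with an adjusted p of 0.779. LRFN2 shares its reads with the bin at chr6:40000001-41000000 above. ABRAXAS1, which binds BRCA1 in a complex at DNA breaks, had 411, 562 and 500 normalised counts at 16 µM against 433, 336 and 386 at 32 µM, so the doses overlapped, as they did for FRMD3 and LMO3. In SMAD3 the 32 µM libraries (1932, 1858 and 2029) lay within or close to the untreated range (2109, 1926 and 1877), and the 16 µM libraries (2443, 2058 and 2221) above those of 32 µM.

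**Figure D4:**
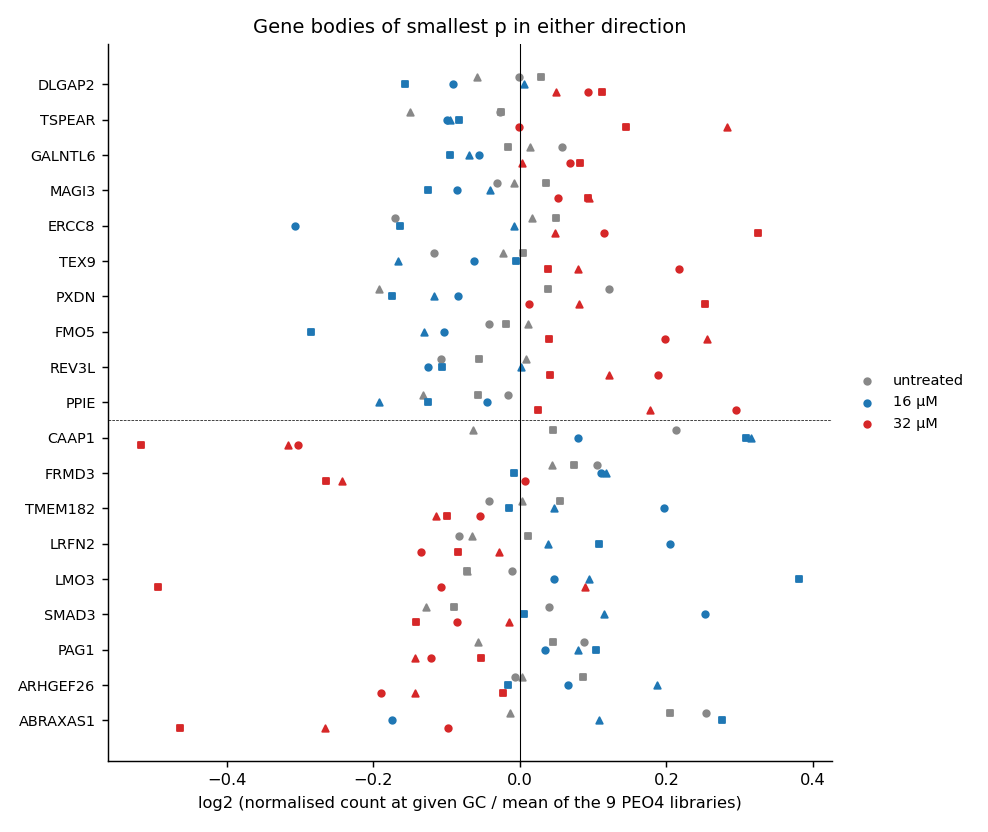
Gene bodies named by the rule, the 10 of smallest p higher at 32 µM above the dashed line and 9 of the 10 lower below it: the x axis is log2 of the normalised count at given GC over the mean of the 9 PEO4 libraries, with 1 point per library (circle, square and triangle for replicates 1, 2 and 3). In CAAP1 the 32 µM libraries are the lowest of the 9.

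Few of these changes followed the order of dose from 0 to 16 to 32 µM. In 18 of the 20 named bodies the mean of untreated PEO4 lay between the means of the doses, and in 2 the means rose or fell through all 3 groups. Among the 339 bodies with an unadjusted p under 0.05, the untreated mean lay between in 274 (80.8%) and the means followed the dose in 40 (11.8%). Over all bodies tested these shares were 33.6 and 33.9%. In the 148 such bins the untreated mean lay between in 124 (83.8%) and followed the dose in 10 (6.76%), against 33.4 and 31.7% of all bins. Choosing features by a large difference between the doses itself raises the first share, so no test was made of it. The arms differed from bodies and bins. Of all 39 arms, the means followed the dose in 23 (59.0%) and the untreated mean lay between in 11 (28.2%). In the 1 arm with an unadjusted p under 0.05 the untreated mean lay between.

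Genes of adduct repair, drug handling and ovarian cancer gave no call. Of 25 measured bodies of the homologous recombination and Fanconi list, 0 passed adjustment, 1 was higher and 1 lower at an unadjusted p under 0.05, and the median log2 change was 0.03, beside 5.22% past this threshold and a median of 0.01 over all bodies. These were FAN1, a nuclease that acts on cross-links (0.26, SE 0.11, adjusted p = 0.868), with 668, 683 and 595 normalised counts at 16 µM and 730, 844 and 753 at 32 µM, and CHEK2, a checkpoint kinase gene (-0.30, SE 0.14, adjusted p = 0.918), with 404, 424 and 396 at 16 µM and 356, 282 and 357 at 32 µM. Parts of CHEK2 have close copies elsewhere in the genome, so its reads are uncertain. Of 14 measured bodies of excision repair, mismatch repair and translesion synthesis, ERCC8 and REV3L were those with an unadjusted p under 0.05, and the median was 0.01.

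Of 17 bodies for platinum uptake, efflux and detoxification, 0 had an unadjusted p under 0.05. Their changes ran from -0.10 in LRRC8C, a subunit of the volume-regulated anion channel, to 0.14 in ABCC5, a drug efflux pump (SE 0.07), with a median of 0.01. ABCB1, the P-glycoprotein gene, had 2862, 2802 and 2751 normalised counts at 16 µM and 3117, 2846 and 3132 at 32 µM, a change of 0.11 (SE 0.06, adjusted p = 0.918). The 22 very long genes at common fragile sites had a median of 0.0 and the narrowest range of the lists, from -0.13 in WWOX to 0.06 in SDK1. Of these 22, 1 body was lower at an unadjusted p under 0.05, and the doses did not overlap in 3, all lower at 32 µM. Over all bodies, 5.22% had an unadjusted p under 0.05 and the doses did not overlap in 9.54%, 402 higher and 218 lower. WWOX, a tumour suppressor gene across the fragile site FRA16D, had 2664, 2606 and 2502 at 16 µM and 2279, 2396 and 2438 at 32 µM (SE 0.06, adjusted p = 0.918), and PTPRN2 had a change of 0.05 (SE 0.03). For a body of 1113.3 kb, WWOX held few reads, with a mean of 2591 at 16 µM and 2618 in untreated PEO4. PTPRN2, of 1048.8 kb, had a mean of 14143 at 16 µM. The cause was not tested, and the change of WWOX rests on these few reads. Of 19 oncogenes and tumour suppressors of serous ovarian cancer, URI1, a prefoldin-like gene (-0.19, SE 0.08), and EGFR (0.12, SE 0.06) had an unadjusted p under 0.05 and an adjusted p of 0.918, and the median was 0.02. The changes of all bodies ran from -0.62 in CAAP1 to 0.83 in WASHC2A, a gene with a near-identical copy whose body held 41.1 to 108 normalised counts.

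The share of reads in gene bodies of at least 50 kb was 40.6, 40.8 and 40.7% at 16 µM, 40.6, 40.5 and 40.7% at 32 µM and 40.7, 40.6 and 40.7% in untreated PEO4. The difference of -0.1 percentage points was of the size of the spread (SD 0.06 and 0.08, exact permutation p = 0.2, adjusted p = 1). At matched GC of 1 kb windows, bodies held more reads than the rest of the genome by 0.09 on the log2 scale in both doses and in untreated PEO4 (dose difference -0.001, exact permutation p = 0.8, adjusted p = 1). At given GC, the slope of the log2 ratio to untreated on the density of GG and CC dinucleotides, the main targets of cisplatin, was -0.030, -0.013 and 0.017 per percentage point at 16 µM and 0.008, 0.014 and -0.019 at 32 µM, against -0.021, 0.010 and 0.011 among the untreated libraries (exact permutation p = 0.7, adjusted p = 1). With AG and CT, the minor target, in its place, the slope was 0.058, 0.037 and 0.017 at 16 µM and -0.015, -0.036 and 0.007 at 32 µM, which did not overlap (exact permutation p = 0.1, the smallest it can give). Untreated libraries, at -0.006, -0.002 and 0.008, overlapped the 32 µM range and lay below all 16 µM libraries. This slope was an alternative outside the 6 measures adjusted together, so it has no adjusted p.

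No chromosome arm passed the test over all libraries. As counted, 0 of 39 arms had an adjusted p under 0.05 (0.0%) and 0 an unadjusted p under 0.05, by DESeq2 and limma too, and the changes ran from -0.06 in 16p to 0.05 in 4q. In 16p the normalised counts were 396607, 461150 and 456282 at 16 µM and 463642, 391250 and 407668 at 32 µM, so that replicate 1 of each dose stood with the other dose. At given GC they came to 446280, 436480 and 441393 at 16 µM and 434781, 433980 and 439152 at 32 µM, a change of -0.02 (SE 0.01, adjusted p = 0.824).

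At given GC 0 arms passed (0.0%), and 18p was the 1 arm with an unadjusted p under 0.05 (2.56%). Its normalised counts were 198102, 198147 and 198999 at 16 µM, 199696, 204535 and 202853 at 32 µM and 199862, 199990 and 198914 in untreated PEO4. The change of 0.03 (SE 0.01, unadjusted p = 0.0394, adjusted p = 0.824) is 2.0%. The doses did not overlap in 3 arms (7.69%), 10p, 13q and 18p, all higher at 32 µM, beside the same share of 0.1 of splits. The direction moved with the scaling here too. Of all arms, 84.6% had a change above 0, against 46.2% with scaling factors computed after the GC curve. With those factors 4 arms had an unadjusted edgeR p under 0.05, 1 higher and 3 lower at 32 µM. The 95% intervals of all 39 arms lay between -0.04 and 0.06, or -2.84 and 3.91%, at given GC, and between -0.34 and 0.26 as counted. The other arms named by the rule, 20p (0.02) and 10p (0.02) among the highest and 19p (-0.01) and 20q (-0.01) among the lowest, had adjusted p of 0.824, and 10p, 19p and 20q turned in sign under at least 1 alternative.

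**Figure D5:**
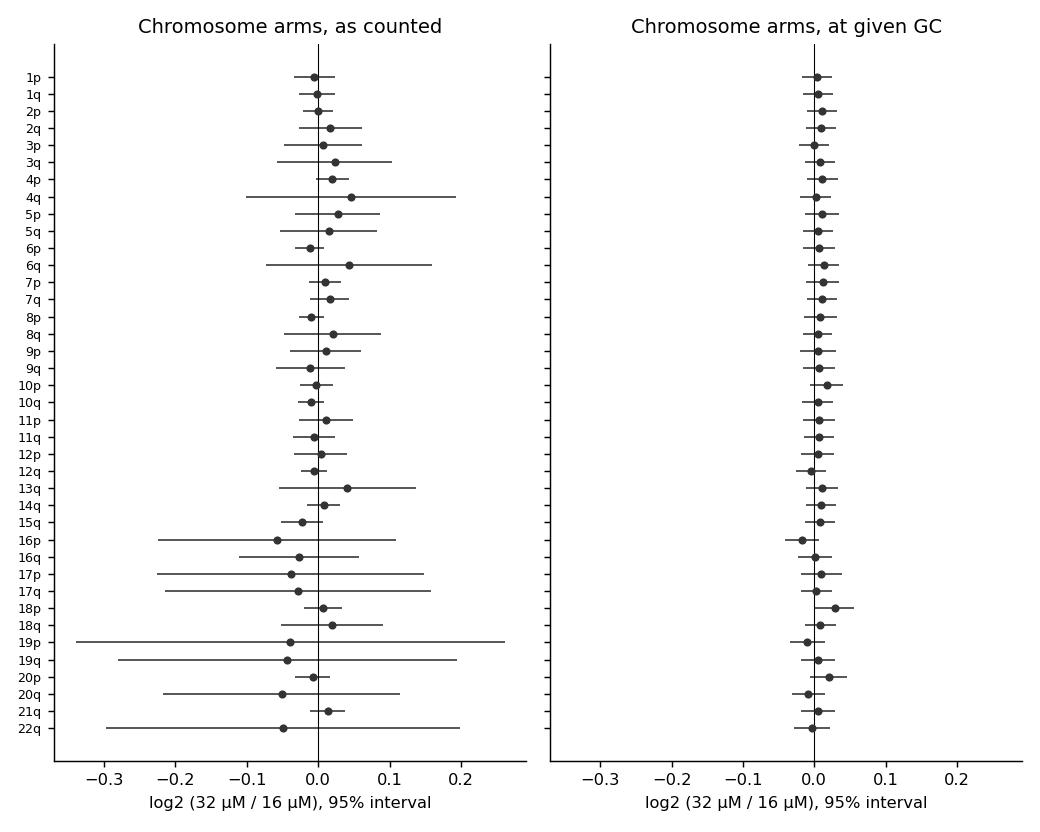
Dose change of the 39 chromosome arms: the x axis is log2 of 32 µM over 16 µM, points are edgeR estimates and lines their 95% intervals. As counted (left) the arms 17p, 17q, 19p, 19q and 22q have the widest intervals, and at given GC (right) all intervals lie between -0.04 and 0.06.

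The intervals describe what a change could have been with the labels and scaling factors taken as given. At given GC they also take the GC curve of each library as known, and a dose change that follows GC is removed with that curve. For 1 Mb bins at given GC the median 95% interval reached 4.34% to the upper side of its estimate, and 2696 of 2716 bins (99.3%) had an interval within 0.25 log2 units of 0, or up to 18.9%, against 69.0% as counted. For gene bodies at given GC the median interval reached 0.16 log2 units to either side and 63.9% of bodies lay within the same bounds. These intervals are not adjusted for the 6497 bodies tested, so they are not the limit of what the test can call. Larger changes of single genes could also be missed, and CAAP1, at -0.62, did not pass (edgeR adjusted p = 0.335).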

How the data were processed

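Pt-exo-seq reads were aligned by the authors with Bowtie2 to hg19, cleared of blacklisted regions and of duplicates marked by Picard, and counted. The deposited values are raw counts in 1000 bp windows stepped by 900 bp, so neighbouring windows share some reads. Windows on 22 autosomes were summed by midpoint into 1 Mb bins, arms of at least 10 Mb and GENCODE 44 (GRCh37 coordinates) bodies of at least 50 kb. Bins with a mean under 500 counts and bodies under 50 were dropped. GC and dinucleotide content came from the GRCh37 sequence. edgeR 4.0.16 (quasi-likelihood F test, TMM, all 15 libraries in 5 groups, Benjamini-Hochberg adjustment) gave changes as counted and, with a spline of 4 df per library as offset, at given GC. A dispersion floor of 1.1e-04 kept arm fits stable. DESeq2 1.42.0 and limma 3.58.1 were alternatives. Values per library were compared by exact permutation (scipy). Scripts were tested on simulated data. Intervals cover the spread of libraries and counting, and not the choice of scaling factors or GC curve.

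Bodies named were the 10 of smallest p in each direction at given GC, at least 5 Mb apart, the bins the 3 of smallest p in each direction, the arms the 3 highest and 3 lowest, and for each gene list the 2 members of smallest p. Members, lists and tests were chosen with earlier results of these data known. The terminal 2 Mb and the order of the 3 PEO4 groups were looked at after values had been seen. A body and a bin that the rule named are not reported here.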

Additional observations from a re-analysis of the deposited data

How the results depend on the processing

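As counted, 0 bins, bodies and arms passed under every alternative run, except 1 arm with replicate 1 of both doses left out, and at given GC 0 arms did. For 1 Mb bins at given GC, where 1 passed, the count was 3 with DESeq2, 0 with DESeq2 size factors, 2 with library totals, 2 with only the 9 PEO4 libraries, 2 with scaling factors computed after the GC curve (added after seeing the data), 48 with a straight line on GC, 4 with replicate 1 of both doses left out (also added) and 0 to 2 when a library was left out. Bodies at given GC gave 1 call with DESeq2 and 5 with the straight line. The cause was not tested.

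With a replicate block, 0 bins passed over all 15 libraries and 0 over the 6 treated ones, and it changed no other call. The numbers did not pair the libraries. Deviations from the dose means over 1 Mb bins were correlated between same-numbered libraries of the 2 doses. The correlations were -0.927, -0.856 and -0.693 as counted, and -0.21, -0.0913 and -0.111 at given GC. No library correlated best with its own number on either scale.

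Of the values per library, leaving out one library gave dose differences from -0.234 to 0.0109 in GC slope, from -0.0053 to 0.00217 in matched-GC body share, from -2.32 to 0.254 points in the GC-richest class, from 0.234 to 2.29 in the GC-poorest, from -0.132 to -0.0518 in body share and from -0.000936 to 0.0223 in the GG and CC slope. Adding long non-coding genes turned the body share difference to 0.0247, matching the GC of the surrounding bin turned the matched share to 0.000936, and AG and CT turned the dinucleotide slope to -0.0519. The terminal 2 Mb excess went from 0.0363 to 0.0903 with a straight line on GC and to 0.0524 with replicate 1 of both doses left out, which turned the GG and CC slope to -0.00447 and the excess distance of unlike pairs as counted from -0.0203 to 0.119. Of 726 values of 40 named features, 721 kept their direction. Those that turned were 10p (-0.0018) and 19p (0.0331) under the straight line, and 19p (from -0.0347 to 0.00668) and 20q (from -0.0141 to 0.000329) with a library left out. Quasi-Poisson arm fits, added after seeing the data, also gave 0 calls. For bodies, the spread between replicates (6.47% at given GC) and the depth (a median of 1357 counts) both limit the precision.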
